A study of Mus musculus with 10 samples.

Results

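Plasma cells are the antibody-secreting end stage of the B cell lineage, and 8 genes that mark them or serve antibody secretion are described here across the 4 groups of a mouse peritoneum RNA-seq study. The genes were taken from a list of names: Jchain, Mzb1, Derl3 and Xbp1 of the secretory apparatus, Tnfrsf17 and Sdc1 of the cell surface, and Prdm1 and Pou2af1 of transcription. All 8 were found among 21877 gene symbols, and all 8 passed the filter on low counts that left 15385 genes to test. Male C57BL/6 mice that carried both Mr1 alleles (Mr1+/+) or lacked Mr1 (Mr1-/-) received intraperitoneal PBS or 4.25% PD fluid (peritoneal dialysis fluid) in equal volume over 6 weeks, and polyA-selected libraries were made from peritoneum RNA. MR1 is the class I-like protein that shows vitamin precursors made by microbes to MAIT cells, an innate-like T cell population. There were 3 Mr1+/+ libraries under PBS, 3 Mr1+/+ under PD fluid, 2 Mr1-/- under PBS and 2 Mr1-/- under PD fluid. The labels used here give no age, do not say whether a library is 1 animal or a pool, and do not say which part of Mr1 is deleted.

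A B cell that commits to antibody secretion shuts down its B cell programme under Blimp-1, the product of Prdm1, and expands its endoplasmic reticulum (ER) under the transcription factor XBP1. Immunoglobulin chains are then folded, assembled and checked in the ER, where MZB1 acts as a co-chaperone, the J chain joins IgM and IgA into polymers, and Derlin-3 serves the removal of misfolded protein. The peritoneum and its omental and mesenteric fat hold B-1 cells and lymphoid clusters, which are known sources of natural IgM and of IgA-secreting cells. Several of the 8 genes are not limited to plasma cells: Pou2af1 is expressed by B cells at large, Sdc1 by epithelia, and Xbp1 and Derl3 by other secretory cells such as pancreatic acinar cells.

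Total counts ran from 14145635 to 16335799 per library. A pair of Mr1+/+ PBS libraries (replicates 1 and 2) gave a chi-square of only 2.23 per gene between them, the pair of Mr1-/- libraries under PD fluid gave 1.74, and the other 6 pairs within a group gave 18.6 to 118. Each of these near-identical pairs was summed and counted as 1 sample, which left 2 Mr1+/+ PBS samples, 3 Mr1+/+ PD fluid samples, 2 Mr1-/- PBS samples and 1 Mr1-/- PD fluid sample. Alternative fits that kept the 10 libraries separate count each such pair as 2 samples. Those fits gave the lowest adjusted p in the ranges over alternatives given below for Mzb1, Derl3 and Xbp1. Mr1 was at 21.0 to 32.5 CPM (counts scaled by library size, the unit used throughout) in the Mr1+/+ samples and at 1.96 to 2.45 CPM in the Mr1-/- samples (exact two-sided permutation test, p = 0.0357, the smallest that 5 against 3 samples can give). Replicate 3 of Mr1+/+ PBS stood apart. Its 14 intestinal epithelium genes summed to 3541 CPM against 38.8 to 93.1 CPM in the other 7 samples, with Cdx2 at 0 counts in 8 of the 10 libraries and at 1024 counts in this one, and its 14 pancreatic acinar genes summed to 30418 CPM against 170 to 6194 CPM. For PD fluid in Mr1+/+ mice the estimates of all 8 genes are given with and without this library. For genotype under PBS and for the interaction this is done only for the genes with an unadjusted p under 0.05. As a check of the tissue, all 10 mesothelial genes looked for were above 0 in every sample and summed to 98.3 to 538 CPM. Krt19 is on both the mesothelial and the intestinal list. The mesothelial sum of 515 CPM in replicate 3 of Mr1+/+ PBS thus does not separate mesothelial from intestinal RNA.

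Of 14 immunoglobulin chain and related symbols looked for, the 12 heavy and light constant chains are not analysed here. The other 2 were Vpreb3, at 5.10 to 17.3 CPM, and the surrogate light chain gene Igll1, at no more than 9 counts in a library and not tested. Antibody transcripts themselves are thus not described.

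Per kilobase of exon, the 8 genes fell into a high and a low set, as the plot of levels per length shows. Jchain was the most abundant at a mean over the 8 samples of 176 CPM per kb, followed by Pou2af1 at 92.6 CPM per kb and Xbp1 at 84.0 CPM per kb. Sdc1 followed at 8.77 CPM per kb, Derl3 at 6.62, Prdm1 at 2.60, Tnfrsf17 at 2.17 and Mzb1 at 1.74 CPM per kb. Pou2af1 and Xbp1 exchanged places between groups, and so did Prdm1, Tnfrsf17 and Mzb1, so that neighbours in this order overlapped across samples, whereas every sample of the leading 3 lay above every sample of the other 5. Counts behind these levels ran from 4955 to 9114 per library for Jchain but only from 12 to 68 for Mzb1 and from 7 to 62 for Tnfrsf17, so that the last pair carries the largest counting error. The highest sample exceeded the lowest 6.52-fold for Tnfrsf17, 5.02-fold for Mzb1, 4.12-fold for Sdc1 and 3.45-fold for Derl3, against 2.52-fold for Pou2af1, 1.69-fold for Jchain, 1.67-fold for Xbp1 and 1.65-fold for Prdm1.

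**Figure D1:**
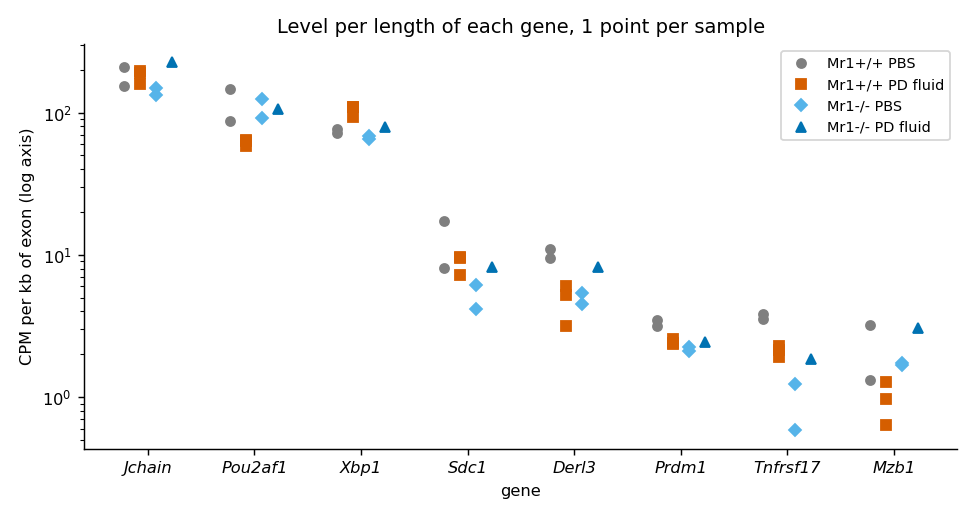
Level per length of the 8 genes: the vertical axis is CPM per kb of exon on a log scale, the horizontal axis the gene, and each point 1 of the 8 samples, marked by group. Jchain, Pou2af1 and Xbp1, with means of 176, 92.6 and 84.0 CPM per kb, sit above the other 5 genes in every sample.

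PD fluid was compared with PBS within Mr1+/+ mice, the comparison with the most samples. Of the 8 genes, 2 fell and 0 rose after PD fluid: Derl3 by 1.09 and Pou2af1 by 0.92 on the log2 scale (edgeR's quasi-likelihood test, Benjamini-Hochberg adjusted over all genes tested). Xbp1 was higher by 0.48 and just missed the threshold, Jchain had an estimate near 0, and the other 4 had negative estimates that did not pass. In the same comparison 14.9% of all genes tested passed, which divides into 6.37% as falls and 8.49% as rises, so that 2 of 8 is a larger share than the background but rests on 2 genes. An unadjusted p under 0.05 was found for 5 of the 8 genes, against 34.1% of all genes, and the estimate was above 0 for 1 of the 8, against 46.1%. The median log2 fold change of the 8 genes was -0.66, against -0.06 over all genes tested. The 3 PD fluid samples did not overlap the 2 PBS samples for 6 of the 8 genes, against 50.7% of all genes tested. Without replicate 3 of Mr1+/+ PBS 3 of the 8 fell (Derl3, Pou2af1 and Mzb1), and the estimates that did not pass were -0.20 for Jchain, -0.85 for Tnfrsf17, -0.51 for Prdm1, 0.13 for Sdc1 and 0.43 for Xbp1. Without PD fluid replicate 3 no gene of the 15356 then tested passed, and without replicate 2 339 genes passed, with 0 of the 8 in both.

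Jchain encodes the small protein that links IgM and IgA monomers. Its level was 525 and 387 CPM in the summed sample and replicate 3 of Mr1+/+ PBS, and 478, 396 and 493 CPM in Mr1+/+ PD fluid replicates 1, 2 and 3. It was 372 and 335 CPM in the 2 Mr1-/- PBS samples and 567 CPM in the Mr1-/- PD fluid sample. The Mr1+/+ groups overlapped and had the same mean of 456 CPM (SD 97.3, n = 2, and SD 52.0, n = 3), so that the estimate was -8.79e-05 ± 0.18 (log2, SE; adjusted p = 1.0). The Mr1-/- samples did not overlap, with PD fluid the highest of all 8 samples and PBS the lowest 2, but the log2 difference of 0.68 ± 0.24 (unadjusted p = 0.0221) had an adjusted p of 1.0.

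Mzb1, which encodes an ER co-chaperone of IgM assembly in marginal zone B cells, B-1 cells and plasma cells, was the scarcest of the 8 genes per length. It stood at 3.91 and 1.61 CPM under PBS and at 1.18, 1.54 and 0.78 CPM under PD fluid in Mr1+/+ samples. In Mr1-/- samples it stood at 2.04 and 2.10 CPM under PBS and at 3.72 CPM under PD fluid. The Mr1+/+ groups did not overlap, but the highest PD fluid sample and the lowest PBS sample were close, and the log2 difference of -1.25 ± 0.50 did not pass (adjusted p = 0.12). Without replicate 3 of Mr1+/+ PBS it was -1.74 ± 0.48 and passed, with an adjusted p of 0.0379, within a range from 0.00842 to 0.668 over all alternatives run. Mzb1 overlaps the annotated gene SPATA24 on the same strand, so part of its few counts may belong to that gene.

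Derl3 encodes Derlin-3, an ER membrane protein of the pathway that carries misfolded proteins out to be degraded. Its level was 21.8 and 18.9 CPM in the Mr1+/+ PBS samples and 6.32, 10.4 and 12.1 CPM in the Mr1+/+ PD fluid samples. In Mr1-/- mice it was 10.7 and 9.07 CPM under PBS and 16.3 CPM under PD fluid. All 3 Mr1+/+ PD fluid samples lay below both PBS samples, a fall to 0.471-fold (log2 -1.09 ± 0.28, adjusted p = 0.0362). Without replicate 3 of Mr1+/+ PBS the fall was 1.18 ± 0.33 in size (log2 -1.18, adjusted p = 0.0377). The call was lost without PD fluid replicate 2 (log2 -1.13, adjusted p = 0.0957), without PD fluid replicate 3 (log2 -1.30, adjusted p = 0.0744) and without the summed PBS pair (log2 -0.96, adjusted p = 0.113), and adjusted p ran from 0.00333 to 0.113 over all alternatives.

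Xbp1 encodes the transcription factor that the unfolded protein response activates by splicing its mRNA, a form these gene counts do not separate. Its level was 251 and 232 CPM in the Mr1+/+ PBS samples and 300.2, 354 and 356 CPM in the Mr1+/+ PD fluid samples. The Mr1-/- samples were at 213 and 221 CPM under PBS and at 255 CPM under PD fluid. All 3 Mr1+/+ PD fluid samples were above the other 5 samples of the study. The difference from Mr1+/+ PBS was 1.40-fold (log2 0.48 ± 0.14, adjusted p = 0.0574) and passed by DESeq2 (log2 0.48, adjusted p = 0.00708), within a range of adjusted p from 0.00573 to 0.175 over all alternatives. Xbp1 was the 1 gene of the 8 with a positive estimate in this comparison.

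**Figure D2:**
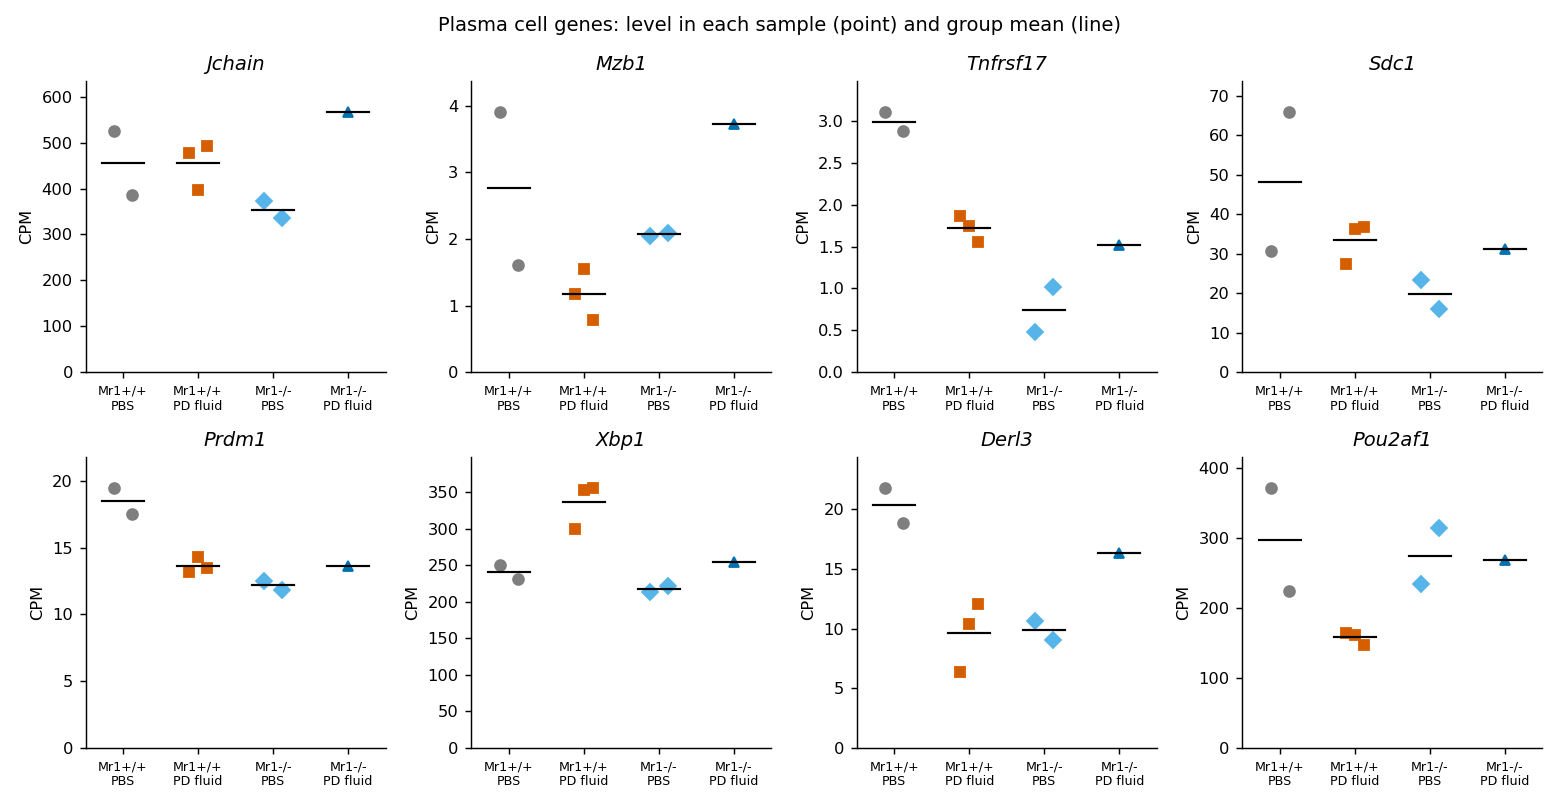
Level of each of the 8 genes in CPM (vertical axis, from 0, with its own scale for each gene) in the 4 groups, with 1 point per sample and a line at the group mean. In Mr1+/+ mice Derl3 and Pou2af1 lie lower after PD fluid and Xbp1 lies higher (300.2 to 356 CPM), while Jchain has the same mean of 456 CPM under both fluids.

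Tnfrsf17 encodes BCMA, the receptor through which APRIL and BAFF keep plasma cells alive. It was at 3.11 and 2.88 CPM in the Mr1+/+ PBS samples and at 1.86, 1.74 and 1.56 CPM in the Mr1+/+ PD fluid samples. It was at 0.476 and 1.01 CPM in the Mr1-/- PBS samples and at 1.52 CPM in the Mr1-/- PD fluid sample. The 2 Mr1+/+ PBS samples were the highest of the study and the 2 Mr1-/- PBS samples the lowest. The Mr1-/- PD fluid sample at 1.52 CPM was close to the lowest Mr1+/+ PD fluid sample at 1.56 CPM, though no pair of groups overlapped for Tnfrsf17. Its log2 difference after PD fluid was -0.80 ± 0.44 in Mr1+/+ (adjusted p = 0.236) and 1.02 ± 0.60 in Mr1-/- (adjusted p = 1.0), neither past the threshold. Against Mr1+/+ under PBS, Mr1-/- was at 0.251-fold (log2 -2.0 ± 0.52, unadjusted p = 0.00475), the largest estimate of the 8 genes in that comparison, with an adjusted p of 0.566.

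Sdc1 encodes syndecan-1 (CD138), a cell surface proteoglycan that marks plasma cells and is also abundant on epithelial cells. Its level was 30.6 CPM in the summed Mr1+/+ PBS sample and 65.8 CPM in replicate 3, the library with intestinal and pancreatic transcripts. It was 27.5, 36.2 and 36.8 CPM in the Mr1+/+ PD fluid samples, 23.3 and 16.0 CPM in the Mr1-/- PBS samples and 31.2 CPM in the Mr1-/- PD fluid sample. Replicate 3 was the highest of the 8 samples, and without it the Mr1+/+ estimate for PD fluid turned from -0.52 ± 0.33 to 0.13 ± 0.27. The epithelial cadherin gene Cdh1 was at 256 CPM in that library and at 2.18 to 5.95 CPM elsewhere; the part of epithelial RNA in the Sdc1 level was not tested. Under PBS, Mr1-/- stood at -1.29 ± 0.37 against Mr1+/+ (log2, adjusted p = 0.566), or at -0.64 ± 0.28 without replicate 3.

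Prdm1 encodes Blimp-1, the repressor that ends the B cell programme, and is also expressed by T cells, macrophages and epithelia. Its level was 19.5 and 17.5 CPM in the Mr1+/+ PBS samples and 13.2, 14.3 and 13.5 CPM in the Mr1+/+ PD fluid samples. The Mr1-/- samples were at 12.5 and 11.8 CPM under PBS and at 13.6 CPM under PD fluid. The Mr1+/+ PBS samples were above the other 6, but the log2 differences of -0.44 ± 0.17 for PD fluid (adjusted p = 0.111) and -0.61 ± 0.19 for Mr1-/- under PBS (adjusted p = 0.566) did not pass.

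Pou2af1 encodes OCA-B, a coactivator that joins the octamer-binding factors at immunoglobulin promoters and is needed for germinal centres. Its level was 372 and 224 CPM in the Mr1+/+ PBS samples and 164, 162 and 147 CPM in the Mr1+/+ PD fluid samples. It was 235 and 315 CPM in the Mr1-/- PBS samples and 269 CPM in the Mr1-/- PD fluid sample. All 3 Mr1+/+ PD fluid samples lay below the other 5 samples of the study, a fall to 0.530-fold of Mr1+/+ PBS (log2 -0.92 ± 0.23, adjusted p = 0.0336). Without replicate 3 of Mr1+/+ PBS the estimate was -1.24 ± 0.19 (adjusted p = 0.00835). The call was lost when any 1 of the 3 PD fluid samples was left out (log2 -0.95, -0.92 and -0.88 without replicates 1, 2 and 3, adjusted p = 0.0608, 0.0995 and 0.13) and without the summed PBS pair (log2 -0.49, adjusted p = 0.157), within a range from 0.000944 to 0.157 over all alternatives. Pou2af1 overlaps the annotated gene Gm47828 on the same strand, to which some of its counts may belong.

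The promoter windows of Derl3 and Pou2af1, the members that passed a test, are shown because both hold letters of an element known to be bound by factors of the unfolded protein response. Jchain is shown beside them as the most abundant member, whose means in the Mr1+/+ groups were equal. The windows are 300 bases from RefSeq on GRCm38.p6, 250 before and 50 after the gene start, and 7 of the 8 genes matched an entry; Mzb1 did not. Capitals mark the match.
Derl3, chr10:75893148-75893447, plus strand: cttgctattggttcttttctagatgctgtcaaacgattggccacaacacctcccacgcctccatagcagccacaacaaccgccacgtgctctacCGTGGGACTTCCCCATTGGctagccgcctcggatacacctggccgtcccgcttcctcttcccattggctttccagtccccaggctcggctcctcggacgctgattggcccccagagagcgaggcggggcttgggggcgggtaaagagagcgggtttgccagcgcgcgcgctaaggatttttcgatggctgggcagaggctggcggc
Pou2af1, chr9:51213440-51213739, plus strand: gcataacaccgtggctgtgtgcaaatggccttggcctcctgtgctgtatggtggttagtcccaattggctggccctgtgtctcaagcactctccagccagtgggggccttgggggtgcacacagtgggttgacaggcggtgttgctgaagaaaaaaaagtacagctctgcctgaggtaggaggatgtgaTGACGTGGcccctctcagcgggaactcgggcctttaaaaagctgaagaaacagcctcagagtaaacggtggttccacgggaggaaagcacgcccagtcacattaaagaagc
Jchain, chr5:88527848-88528147, minus strand: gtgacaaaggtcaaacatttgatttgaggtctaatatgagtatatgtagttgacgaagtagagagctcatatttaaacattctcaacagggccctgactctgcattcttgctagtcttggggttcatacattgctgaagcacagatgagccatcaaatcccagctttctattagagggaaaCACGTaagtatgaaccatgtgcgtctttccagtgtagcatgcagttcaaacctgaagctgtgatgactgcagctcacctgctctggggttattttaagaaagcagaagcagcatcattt
In Derl3 the capitals are the ER stress response element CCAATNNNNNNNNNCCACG, read on the opposite strand, at -156 to -138 from the start. That element was found on either strand in 39 of 32851 windows (0.119%), among them those of the ER chaperone gene Hspa5 and of Creld2. In Pou2af1 they are the unfolded protein response element TGACGTGG at -61 to -54, found in 222 windows (0.676%). In Jchain they are only the short core ACGTG, read on the opposite strand at -69 to -65, which 19.6% of windows hold and which lies inside TGACGTGG. Derl3 also holds this core, left in lower case, at -167 to -163 and read on the opposite strand at -168 to -164. The windows of Tnfrsf17, Sdc1, Prdm1 and Xbp1, not shown, held none of the elements searched for. That of Prdm1, at chr10:44458699-44458998, lies inside the annotated gene, so the outermost start of Prdm1 was not searched. The octamer ATTTGCAT, at which OCA-B acts, was found in 1.74% of windows and in none of the 7 windows searched here. These are matches of letters in a fixed window, and binding was not measured.

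Derl3 is annotated at chr10:75893413-75895941 (plus), Pou2af1 at chr9:51213708-51240080 (plus), Jchain at chr5:88519809-88527891 (minus), Xbp1 at chr11:5520659-5525893 (plus), Sdc1 at chr12:8771323-8793715 (plus), Prdm1 at chr10:44437177-44528501 (minus), Tnfrsf17 at chr16:11313812-11320074 (plus) and Mzb1 at chr18:35647267-35649367 (minus), all on mm10 with the GENCODE M21 annotation.

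PD fluid against PBS within Mr1-/- mice rested on 1 sample against 2, with the lone sample assumed to vary like the other groups. None of the 8 genes passed by edgeR, 1 (Jchain) had an unadjusted p under 0.05, and 0 passed by DESeq2. Among all genes tested 0.0% passed by edgeR, 1.5% had an unadjusted p under 0.05 (231 genes), and 3 genes passed by DESeq2. The estimate was positive for 7 of the 8 genes, against 46.7% of all genes tested, and -0.03 ± 0.31 for Pou2af1, with a median of 0.67 against -0.01 over all genes. The Mr1-/- PD fluid sample lay above both PBS samples for those 7 genes, where 28.7% of all genes tested lay above and 56.7% did not overlap in either direction.

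Mr1-/- was next compared with Mr1+/+ under PBS, 2 samples against 2. All 8 estimates were negative, where 48.2% of all genes tested had a positive one, with a median of -0.52 against -0.02 over all genes, and 4 genes (Tnfrsf17, Derl3, Sdc1 and Prdm1) had an unadjusted p under 0.05, where 8.64% of all genes did. None passed by edgeR, for which 0.013% of all genes tested passed, and 1, Sdc1, passed by DESeq2 (log2 -1.30, adjusted p = 0.0386, within 0.00577 to 0.732 over all alternatives). For Sdc1 the library with epithelial transcripts is 1 of the 2 Mr1+/+ samples, and the only one in the alternative that gave the lowest adjusted p. Derl3 was at 0.485-fold in this comparison (log2 -1.04 ± 0.31, unadjusted p = 0.00925, adjusted p = 0.566) and at -1.14 ± 0.35 without that library. Without it Tnfrsf17 was at -2.05 ± 0.61 and Prdm1 at -0.68 ± 0.23, and none of the 8 genes passed. The 2 groups did not overlap for 6 of the 8 genes, against 38.6% of all genes tested.

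Under PD fluid, Mr1-/- was compared with Mr1+/+ as 1 sample against 3. None of the 8 genes passed by edgeR or by DESeq2, 2 (Mzb1 and Pou2af1) had an unadjusted p under 0.05 by edgeR, where 19.1% of all genes did, and 0.013% of all genes tested passed. The lone Mr1-/- sample lay outside the range of the 3 Mr1+/+ samples for 6 of the 8 genes, a share near the 70.0% of all genes tested. Mzb1 was 3.18-fold higher in the Mr1-/- sample (log2 1.67 ± 0.59, adjusted p = 0.195) and Pou2af1 1.71-fold higher (log2 0.77 ± 0.28, adjusted p = 0.200). Derl3 was at 0.77 ± 0.34 (adjusted p = 0.266), Xbp1 at -0.40 ± 0.18 (adjusted p = 0.281), and Prdm1 at -0.0023 ± 0.22.

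The difference between the 2 genotypes in their response to PD fluid was tested as an interaction. None of the 8 genes passed by edgeR, 4 had an unadjusted p under 0.05 (13.2% of all genes tested did, and 0.0% passed), 7 had a positive estimate (50.8% of all genes tested did), and 1, Derl3, passed by DESeq2 (log2 1.81, adjusted p = 0.0417). The edgeR estimate for Derl3 was 1.81 ± 0.46 (unadjusted p = 0.00382, adjusted p = 0.272, from 0.0166 to 0.566 over the alternatives). The others with an unadjusted p under 0.05 were Mzb1 at 2.10 ± 0.81, Tnfrsf17 at 1.81 ± 0.75 and Pou2af1 at 0.89 ± 0.38. These 4, with replicate 3 of Mr1+/+ PBS left out, were at 1.91 ± 0.49 for Derl3 (adjusted p = 0.0996), 2.59 ± 0.71 for Mzb1, 1.87 ± 0.83 for Tnfrsf17 and 1.21 ± 0.29 for Pou2af1, and none passed. Mzb1, Tnfrsf17, Prdm1 and Derl3 had every Mr1+/+ PD fluid sample below every Mr1+/+ PBS sample and the Mr1-/- PD fluid sample above both Mr1-/- PBS samples. That pattern was found in 4 of the 8 genes and in 6.53% of all genes tested, and the direction in Mr1-/- rests on 1 sample. The lowest adjusted p in the range given for Derl3 came with the near-identical libraries kept separate. Derl3 is also expressed by pancreatic acinar cells, whose genes are given for this comparison below. The comparisons share samples, so their estimates are not independent of each other.

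**Figure D3:**
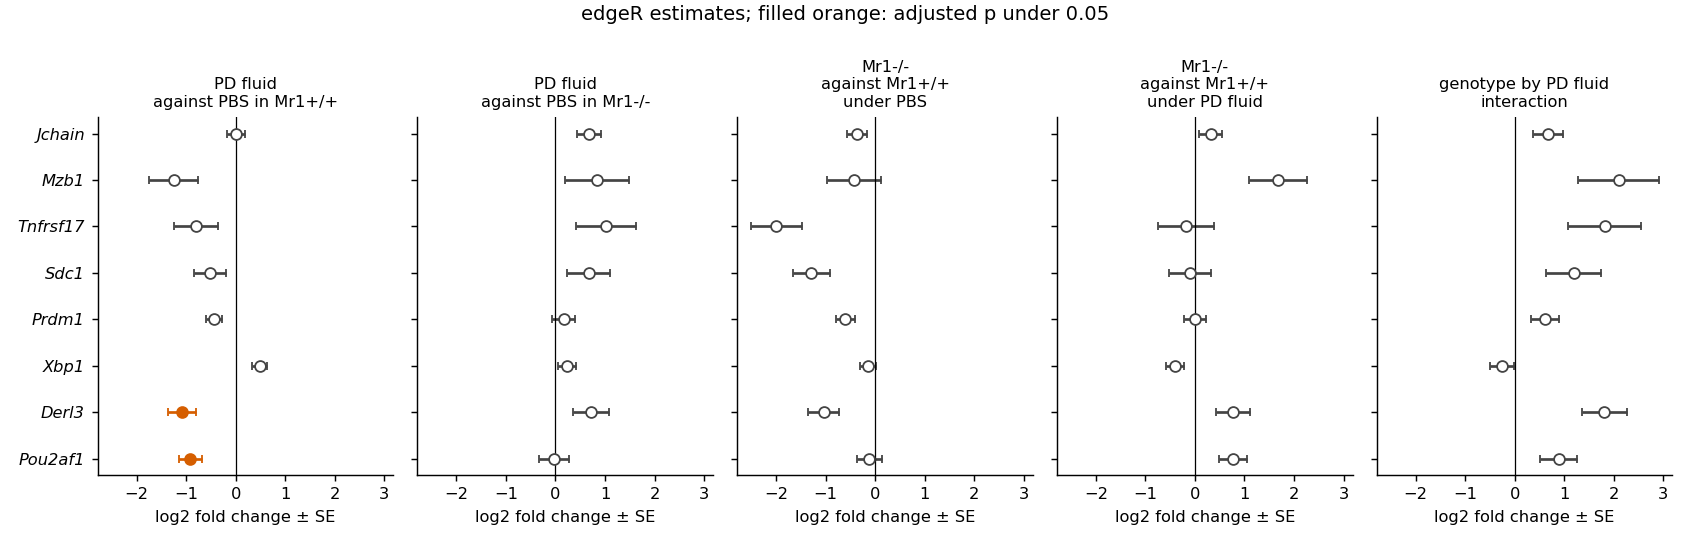
Log2 fold change (horizontal axis, with bars of 1 SE) of the 8 genes in each of the 5 comparisons, from edgeR; filled orange points have an adjusted p under 0.05. Only Derl3 (-1.09) and Pou2af1 (-0.92) in the comparison of PD fluid with PBS in Mr1+/+ mice are filled.

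Further genes of the plasma cell programme fell in the same comparison. Of 20 further plasma cell genes, 7 fell and 0 rose after PD fluid in Mr1+/+ mice, with a median of -0.72, where 6.37% of all genes tested fell. When replicate 3 of Mr1+/+ PBS was left out 9 fell and the median was -0.96, without the summed PBS pair 3 fell, and without PD fluid replicate 1, 2 or 3 there were 7, 0 and 0 falls. Those named by smallest p were Cxcr4, the homing receptor for CXCL12 (log2 -1.32 ± 0.22, adjusted p = 0.0135), Itga4, the alpha4 integrin chain (-1.33 ± 0.27, adjusted p = 0.0236), Tnfrsf13b, which encodes the BAFF and APRIL receptor TACI (-1.0 ± 0.22, adjusted p = 0.0237), and Glcci1 (-1.53 ± 0.34, adjusted p = 0.026). Most of these are also expressed by B cells, T cells or both. Irf4, the factor that acts with Blimp-1, was at 205 and 137 CPM under PBS and at 92.9, 220 and 193 CPM under PD fluid in Mr1+/+ samples, which overlapped (log2 -0.02 ± 0.36). In the other 4 comparisons none of the 20 genes passed by edgeR, with 0, 2, 7 and 9 at an unadjusted p under 0.05 for PD fluid in Mr1-/-, genotype under PBS, genotype under PD fluid and the interaction. Over all genes tested those shares were 1.5%, 8.64%, 19.1% and 13.2%. DESeq2 passed 10 as falls in Mr1+/+ mice, 2 as higher in Mr1-/- under PD fluid and 2 in the interaction.

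Bhlha15, which encodes the secretory factor MIST1 of plasma cells and pancreatic acinar cells, followed the order of Derl3 in its group means, though not sample by sample. It was at 11.1 and 19.7 CPM in the Mr1+/+ PBS samples, at 3.84, 6.44 and 6.42 CPM in the Mr1+/+ PD fluid samples, at 6.53 and 5.34 CPM in the Mr1-/- PBS samples and at 10.5 CPM in the Mr1-/- PD fluid sample. It fell after PD fluid in Mr1+/+ mice by 1.46 on the log2 scale (SE 0.33, adjusted p = 0.0268), but its highest value was in the library with the most acinar transcripts, and without that library it was at -1.0 ± 0.34 (adjusted p = 0.0756). With the scaled mean log2 CPM of the acinar genes as a covariate Bhlha15 was at -1.20 ± 0.22 (adjusted p = 0.00867). Summed acinar CPM were 577 and 30418 in the Mr1+/+ PBS samples, 170, 3802 and 4500 in the Mr1+/+ PD fluid samples, 761 and 321 in the Mr1-/- PBS samples and 6194 in the Mr1-/- PD fluid sample. With the same covariate of mean log2 CPM Derl3 also fell, at -1.04 ± 0.27 (adjusted p = 0.0276), and so did Pou2af1, at -1.01 ± 0.18 (adjusted p = 0.00708). For PD fluid in Mr1-/- all 13 acinar genes tested had positive estimates, with a median of 3.49, where 46.7% of all genes tested did. In the interaction all 13 were also positive, with a median of 5.89, where 50.8% of all genes tested were. Derl3 had positive estimates in both, and both rest on 1 Mr1-/- PD fluid sample. The part of acinar RNA in the Derl3 and Bhlha15 levels was not tested beyond these values.

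Genes of the ER machinery passed the test in both directions. Of 20 genes of ER folding and the unfolded protein response, 1 rose (Dnajb9, a co-chaperone of BiP, log2 0.69 ± 0.15, adjusted p = 0.025) and 1 fell (Eif2ak3, the stress sensor PERK, -0.72 ± 0.14, adjusted p = 0.0194) after PD fluid in Mr1+/+ mice, with a median of 0.12. Of 20 genes of ER translocation and degradation, 1 rose (Ssr3, a subunit of the translocon-associated complex, 0.50 ± 0.13, adjusted p = 0.0416) and 0 fell, with a median of 0.14. In either direction these are 2 of 20 and 1 of 20, against 14.9% of all genes tested, and DESeq2 passed 5 of 20 (4 rose, 1 fell) and 3 of 20 (2 rose, 1 fell). Neither list had a call without PD fluid replicate 2, without replicate 3 or without the summed PBS pair. Without replicate 3 of Mr1+/+ PBS the second list had 0 rises and 1 fall. Hspa5, which encodes BiP and whose window holds the same element as that of Derl3, was at 392 and 365 CPM under PBS and at 466, 504 and 585 CPM under PD fluid in Mr1+/+ samples (log2 0.46 ± 0.16, adjusted p = 0.092). Derl3 and Hspa5 thus had estimates of opposite sign in this comparison, with groups that did not overlap for either. These ER genes are expressed by all cells, so a whole-tissue level reports on more than antibody-secreting cells. In each of the other 4 comparisons 0 genes of both lists passed by edgeR, with at most 3 of 20 at an unadjusted p under 0.05, and 0 passed by DESeq2.

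Signals that keep plasma cells alive or call them in were looked at next. Of 12 such genes 11 were tested, and 1 fell after PD fluid in Mr1+/+ mice, where 6.37% of all genes tested fell. It was Tnfrsf13c, the BAFF receptor gene of mature B cells (log2 -1.03 ± 0.24, adjusted p = 0.0315). There were 0 falls on this list when PD fluid replicate 1, 2 or 3 was left out. Tnfsf13b, which encodes BAFF, was at 6.43 to 11.0 CPM over the 8 samples, Tnfsf13, which encodes APRIL, at 0.541 to 1.36 CPM, and Il6 at 0.204 to 0.758 CPM. Il5 had at most 2 counts in a library and was not tested. In the other 4 comparisons 0 of the 11 passed by edgeR, with at most 2 at an unadjusted p under 0.05, and DESeq2 passed 1, as higher in Mr1-/- under PD fluid.

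B cell identity genes, with which Pou2af1 shares its cells, fell after PD fluid in Mr1+/+ mice. Of 14 such genes, 12 fell and 0 rose, with a median of -1.01, where 6.37% of all genes tested fell. With replicate 3 of Mr1+/+ PBS left out 12 fell, without the summed PBS pair 5 fell, and without PD fluid replicate 1, 2 or 3 there were 11, 3 and 0 falls. Pax5, the factor that fixes B cell identity, fell by 1.62 on the log2 scale (SE 0.22, adjusted p = 0.0124), Bach2 by 1.56 and Cd22 by 1.30. Their summed level was 4443 and 2871 CPM in the Mr1+/+ PBS samples, 1886, 1786 and 1695 CPM in the Mr1+/+ PD fluid samples, 3407 and 3233 CPM in the Mr1-/- PBS samples and 3492 CPM in the Mr1-/- PD fluid sample, with none of the 14 genes at 0 in any sample. For genotype under PD fluid their median was 0.92, with 0 passing by edgeR, 12 at an unadjusted p under 0.05 (19.1% of all genes tested) and 7 higher in Mr1-/- by DESeq2. In whole tissue, fewer cells of a type and less RNA per cell cannot be told apart. Other cell markers moved in the PD fluid comparison within Mr1+/+ mice, where 6.37% of all genes tested fell and 8.49% rose. There 3 of 9 T cell genes fell, 6 of 10 macrophage genes rose and 9 of 10 adipocyte genes rose. Summed adipocyte levels were 3285 to 4116 CPM under PBS and 8926 to 13066 CPM under PD fluid. These calls too were fewer without PD fluid replicate 2 (0, 1 and 5) and absent without replicate 3. The part of these other cells in the results for the 8 genes was not tested.

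Set against the summed level of the 14 B cell genes in the same sample, the 8 genes differed. Pou2af1 stayed between 6.90% and 9.74%, at 8.37% and 7.80% of the B cell sum in the Mr1+/+ PBS samples, 8.72%, 9.07% and 8.70% in the Mr1+/+ PD fluid samples, 6.90% and 9.74% in the Mr1-/- PBS samples and 7.72% in the Mr1-/- PD fluid sample. Jchain stood at 11.8% and 13.5% in the Mr1+/+ PBS samples and at 25.3%, 22.2% and 29.1% in the Mr1+/+ PD fluid samples, with 10.9%, 10.4% and 16.2% in the 3 Mr1-/- samples. Xbp1 stood at 5.64% and 8.07% under PBS and at 15.9%, 19.8% and 21.0% under PD fluid in Mr1+/+ samples. Prdm1 stood at 0.439% and 0.611% under PBS and at 0.700%, 0.800% and 0.795% under PD fluid in Mr1+/+ samples, and at 0.366% to 0.391% in the Mr1-/- samples. The Mr1+/+ PD fluid samples were thus above the other 5 for Jchain, Xbp1 and Prdm1, and overlapped them for Pou2af1, Mzb1, Tnfrsf17, Derl3 and Sdc1. The B cell sum was itself lowest in the Mr1+/+ PD fluid samples, at 1695 to 1886 CPM. Any gene that fell less than this sum thus has a higher ratio there. Prdm1 is such a gene, since its CPM was lower after PD fluid in Mr1+/+ mice. How many of all genes tested have this order of ratios was not counted. These ratios are descriptions of unequal change and carry no test.

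**Figure D4:**
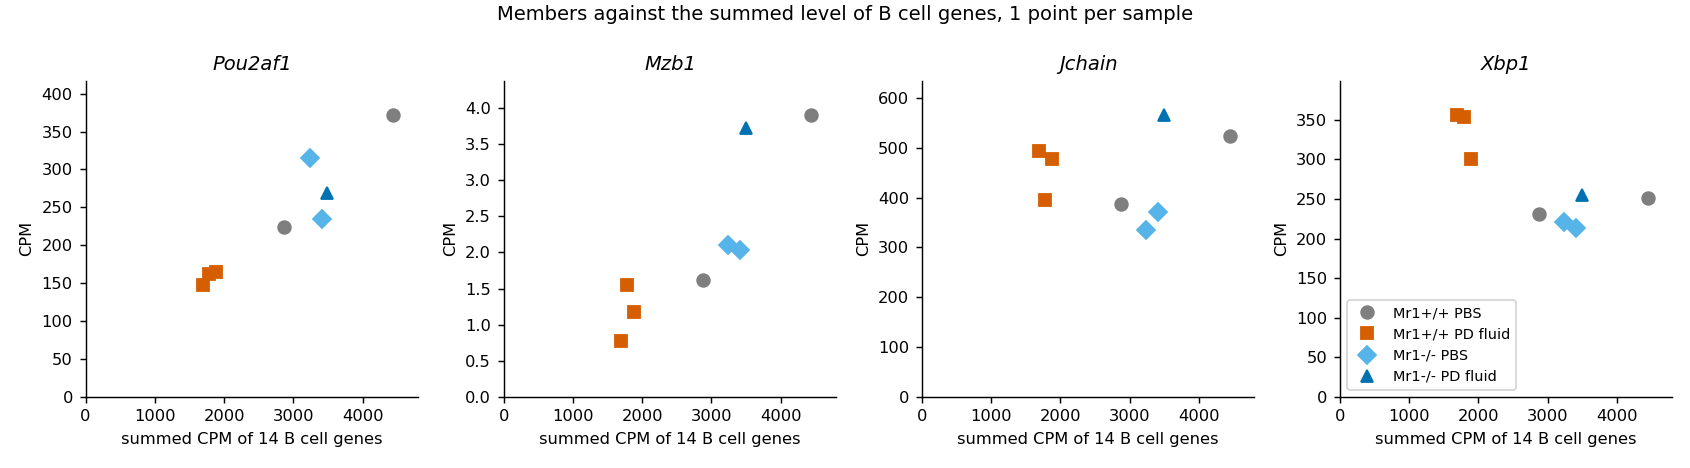
Level of Pou2af1, Mzb1, Jchain and Xbp1 in CPM (vertical axes, from 0) against the summed CPM of 14 B cell genes (horizontal axes), 1 point per sample, marked by group. The Mr1+/+ PD fluid samples have the lowest B cell sums, 1695 to 1886 CPM, and lie lowest for Pou2af1 but highest for Xbp1.

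For each of the 8 genes the tested genes with the most similar pattern over the 8 samples were sought, by Pearson's r of log2 CPM among 11546 genes with a mean of at least 5 CPM, predicted and clone-based symbols left out. The values describe these 8 samples, which share groups, and they are the highest of many. For Xbp1 the nearest was Pea15a (r = 0.99, Spearman's rho = 0.98, r = 0.98 without the 2 samples farthest from the median). For Pou2af1 it was Trim34a (r = 0.99, rho = 0.98, r = 0.98 without those 2). For Mzb1 it was Zmynd8 (r = 0.98, rho = 0.98, r = 0.95). For Derl3 it was Usb1 (r = 0.96, rho = 0.98, r = 0.94). For Tnfrsf17 it was Tmub2 (r = 0.97, rho = 0.88, r = 0.89), for Sdc1 Unc5b (r = 0.96, rho = 0.90, r = 0.82) and for Prdm1 Cd82 (r = 0.96, rho = 0.81, r = 0.56), the last resting largely on the 2 samples farthest out. For Jchain it was Erf (r = 0.92, rho = 0.93, r = 0.81), the lowest best match of the 8. No gene was nearest to 2 of the members.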

How the data were processed

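The authors deposited 1 table of whole-number read counts per gene symbol for 10 peritoneum libraries. Per the submitters' processing notes the genome build was mm10; aligner, counter, strand setting and annotation: not given in the sources used here. Per the labels' protocols RNA was polyA-selected and amplified by PCR, so counts are reads, not molecules. Rows sharing a symbol were summed (21899 rows, 21877 symbols), and 97.0% of symbols matched GENCODE M21, which gave positions and exon lengths. The pairs of near-identical libraries were summed, leaving 8 samples.

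From the counts, edgeR 4.0.16 in R 4.3.3 gave TMM-scaled CPM and quasi-likelihood tests (filterByExpr, 4 group means, 4 residual degrees of freedom). Benjamini-Hochberg adjusted p under 0.05 over all 15385 genes tested was the call, and SE is the absolute log2 fold change over the square root of F. Alternatives were DESeq2 1.42.0 with its size factors, library totals without TMM, no filter, 10 separate libraries, a replicate block, an acinar covariate, only the groups compared, and each library left out. The procedure was tested on simulated data. Beyond the 8 genes, up to 4 called genes of each list by smallest p were named, or 2 with none called, and the nearest gene by r, with the other genes beside them chosen after their values were seen. The members and lists were chosen with earlier results of these data known. The labels do not say that libraries come from separate animals, and p-values reflect the spread among these samples alone, which may be technical.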

Additional observations from a re-analysis of the deposited data

How the results depend on the processing

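Of the 8 genes, Derl3, Pou2af1, Mzb1, Tnfrsf17 and Prdm1 kept negative estimates after PD fluid in Mr1+/+ mice under all 18 alternatives. In that comparison Xbp1 kept a positive estimate under all 18, whereas Jchain and Sdc1 changed sign under some. With 10 separate libraries 5 of the 8 genes passed there and 5549 genes in all, with 4 and 3400 for genotype under PD fluid, 2 and 1490 for the interaction, 50 genes for genotype under PBS and 2 for PD fluid in Mr1-/-. By DESeq2 3780 genes passed for PD fluid in Mr1+/+, 3 in Mr1-/-, 211 for genotype under PBS (1 of the 8), 874 under PD fluid and 420 for the interaction (1 of the 8). With no filter 6 genes passed for genotype under PBS and 7 under PD fluid. With the acinar covariate these were 6 and 596, and 217 for the interaction. With only the groups compared they were 0 and 561, the latter with 1 of the 8 genes, Pou2af1. Leaving out 1 library or the summed pair gave 0 to 2751 genes for PD fluid in Mr1+/+ (0 to 3 of the 8), 0 to 1 in Mr1-/-, 1 to 665 for genotype under PBS (0 to 1 of the 8), 0 to 42 under PD fluid and 0 to 311 for the interaction. The count of 0 for PD fluid in Mr1+/+ came without PD fluid replicate 3, and 339 genes passed without replicate 2, with 0 of the 8 in both. Without the PBS pair the only Mr1+/+ PBS sample left is replicate 3, with its intestinal and pancreatic transcripts. Sdc1 for PD fluid in Mr1+/+ was then at -0.96. The highest of these counts for genotype under PBS, genotype under PD fluid and the interaction came from that same fit. For PD fluid in Mr1+/+ DESeq2 also passed more of the survival signals (1 rose, 2 fell of 11) and the T cell genes (6 fell of 9, against 8 by edgeR without PBS replicate 3). The cause of these shifts was not tested.

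Whether replicate numbers pair the samples could not be settled, since Mr1+/+ PBS replicates 1 and 2 were near-identical. Deviations of same-numbered Mr1+/+ PBS and PD fluid libraries correlated at 0.14, -0.12 and 0.10, those of differently numbered ones at -0.16 to 0.18. With the replicate block and 10 separate libraries 5537 genes passed for PD fluid in Mr1+/+ (5 of the 8), 2428 for genotype under PD fluid (2 of the 8) and 1915 for the interaction (3 of the 8), and Sdc1 for genotype under PD fluid turned to 0.11.

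Estimates that changed sign were these. Leaving out 1 library or the summed pair, Jchain for PD fluid in Mr1+/+ ran from -0.20 to 0.26 and Sdc1 from -0.96 to 0.13 (the last without PBS replicate 3). Genotype under PBS ran from -0.91 to 0.36 for Mzb1 and from -0.44 to 0.30 for Pou2af1, both highest without the PBS pair, and genotype under PD fluid from -0.025 to 0.011 for Prdm1. Prdm1 for genotype under PD fluid was 0.085 without TMM and 0.011 with the acinar covariate. Pou2af1 for PD fluid in Mr1-/- ran from -0.22 to 0.20 and was 0.29 with the acinar covariate, and Mr1 there ran from -0.067 to 0.25. Library totals without TMM moved the median of all genes by less than 0.1 in every comparison. Depth limits Mzb1 and Tnfrsf17 most, at 12 to 68 and 7 to 62 counts per library.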

Other observations

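Germinal centre and class switch genes gave 0 calls of 8 by edgeR in all 5 comparisons. For PD fluid in Mr1+/+ mice 4 of the 8 had an unadjusted p under 0.05, against 34.1% of all genes tested. Their median there was -0.66, against -0.06 over all genes tested. DESeq2 passed 2 of them as falls, and 4 fell by edgeR without replicate 3 of Mr1+/+ PBS. The nearest to the threshold were Fas, a death receptor (log2 0.45 ± 0.15, adjusted p = 0.0749), and Ung, the uracil glycosylase of class switching (-0.69 ± 0.24, adjusted p = 0.081). Of 6 genes of polymeric immunoglobulin transport and mucosal homing, 1 rose and 2 fell in the same comparison, where 8.49% of all genes tested rose and 6.37% fell. Fcgrt, which encodes the neonatal Fc receptor that recycles IgG, rose by 1.18 (SE 0.19, adjusted p = 0.0124). Itgb7, the beta7 integrin chain, was at -0.70 ± 0.19 (adjusted p = 0.0422) and the chemokine gene Ccl25 at -1.16 ± 0.31 (adjusted p = 0.0431). Without PD fluid replicate 1, 2 or 3 there were 0 falls on this list, and 1, 1 and 0 rises. Pigr, which encodes the receptor that carries J chain-bound IgA across epithelium, was at 849 CPM in replicate 3 of Mr1+/+ PBS and at 0.972 to 5.40 CPM in the other 7 samples, while Jchain in that library was at 387 CPM, within the range of the others.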
